A study of Mus musculus with 7 samples.

Results

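Neutrophil granule and alarmin genes were followed here in kidneys of mice without functional lamin B receptor (LBR), a protein of the inner nuclear membrane to which heterochromatin is anchored. The group is 10 genes, S100a8, S100a9, Retnlg, Ngp, Camp, Ltf, Mmp8, Chil3, Elane and Mpo, taken by symbol from the 24328 symbols of the deposited tables. All 10 were listed there. They were selected on the difference of their levels between LBR-null and WT kidneys in these same libraries, so their values are given as a description and without a test. LBR-null mice 4001, 4002 and 4007 were homozygous for the loss-of-function allele (genotype Lbric-J/ic-J) and mouse 4009 was a WT littermate (Lbr+/+), all on the C57BL/6J background and 4 weeks old. The labels name no transgene and no treatment. The allele is a germline one, so blood cells carried it as well as kidney cells. PolyA RNA of the pulverized right kidney was sequenced, and mice 4001, 4007 and 4009 gave 2 libraries each while mouse 4002 gave 1.

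Neutrophils load their granules in a fixed order as they mature in bone marrow. Myeloperoxidase and neutrophil elastase (Mpo and Elane) enter the azurophil granules of promyelocytes, and lactoferrin, cathelicidin, neutrophilic granule protein and collagenase 2 (Ltf, Camp, Ngp and Mmp8) enter the specific granules that follow. S100a8 and S100a9 encode the subunits of calprotectin, a cytosolic protein that binds calcium and zinc and acts as an alarmin once released. Loss of LBR is known for giving neutrophils with poorly lobed nuclei, as in Pelger-Huët anomaly and in ichthyosis mice. A healthy kidney holds few neutrophils, most of them in its blood vessels.

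The libraries held 20694016 to 26333284 reads on genes, and 1 read was worth 0.787 to 1.15 normalized counts (reads of a gene after division by a per-library DESeq2 size factor). The kidney segment list was present in all mice. Lbr itself stood at 322, 340 and 471 normalized counts in mice 4001, 4002 and 4007 and at 398 in the WT mouse, so a gene-level count does not check the genotype. Mouse 4001 stood apart. Its libraries held reads of Xist (5785 normalized counts) as well as of the Y-linked gene Ddx3y (141), whereas mouse 4007 had 9940 and 44.3, mouse 4002 had 65.3 and 1516, and the WT mouse had 35.5 and 1284. The labels give no sex. The log2 differences of the 10 genes are therefore also given without mouse 4001. Those values keep mouse 4007, whose high Xist and low Ddx3y are the reverse of the WT mouse. For mouse 4007 this difference and the genotype cannot be told apart. Mouse 4002, whose Xist and Ddx3y levels were nearest to those of the WT mouse, is named for each gene. With 1 WT mouse, its own spread between animals is unknown. With 4 possible arrangements of the mice, a one-sided exact permutation test cannot go below 0.25.

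The genes lie on 5 chromosomes. On mm9, S100a8 (chr3:90472993-90473956, plus strand) and S100a9 (chr3:90496554-90499643, minus strand) face each other in the S100 cluster, and Camp, Ngp, Ltf and Mmp8 are all on chromosome 9. The study sorted genes by CpG islands (CGIs) at their starts. Only Ngp and Mpo among the 10 had a window of 201 bases within 500 bases of a start in which at least 50% of bases were G or C and CpG reached more than 0.6 of its expected number, against 67.6% of 22359 coding genes. The study also required regions bound by a CxxC domain, so this window alone does not place a gene in its CGI classes. Sequence before the RefSeq start is shown for the calprotectin pair, for Retnlg, the gene with the largest log2 difference, and for Mmp8, which holds both myeloid words searched. Capitals mark the C/EBP word (TTGCNNAA, either strand), the PU.1 word (GAGGAA, either strand, so TTCCTC on the other) and the TATA word (TATAAA, gene strand). Each run is 250 bases, 5′ to 3′ on the strand of the gene, from RefSeq promoters of build GRCm38.p6, and matched mm9 exactly once. The mm9 positions are chr3:90472743-90472992 (plus) for S100a8, chr3:90499644-90499893 (minus) for S100a9, chr16:48872471-48872720 (plus) for Retnlg and chr9:7558179-7558428 (plus) for Mmp8.
S100a8: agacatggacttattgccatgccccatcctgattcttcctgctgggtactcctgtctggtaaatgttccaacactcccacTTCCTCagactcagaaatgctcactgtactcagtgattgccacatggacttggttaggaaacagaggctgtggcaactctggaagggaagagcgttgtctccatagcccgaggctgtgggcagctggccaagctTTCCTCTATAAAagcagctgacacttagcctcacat
S100a9: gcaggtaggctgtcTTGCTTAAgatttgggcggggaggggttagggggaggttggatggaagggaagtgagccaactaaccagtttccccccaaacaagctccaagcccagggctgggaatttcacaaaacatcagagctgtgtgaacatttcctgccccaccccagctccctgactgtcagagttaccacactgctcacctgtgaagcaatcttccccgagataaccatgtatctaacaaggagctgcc
Retnlg: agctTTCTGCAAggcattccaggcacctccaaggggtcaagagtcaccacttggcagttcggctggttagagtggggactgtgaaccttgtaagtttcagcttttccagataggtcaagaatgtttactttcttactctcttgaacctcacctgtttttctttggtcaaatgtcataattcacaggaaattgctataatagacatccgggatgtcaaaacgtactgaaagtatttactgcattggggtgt
Mmp8: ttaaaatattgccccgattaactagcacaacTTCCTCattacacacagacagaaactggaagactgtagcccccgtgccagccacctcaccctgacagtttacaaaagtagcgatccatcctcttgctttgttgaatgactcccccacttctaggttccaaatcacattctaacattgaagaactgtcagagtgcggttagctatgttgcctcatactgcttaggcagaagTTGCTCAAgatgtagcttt

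In S100a8 PU.1 words began 170 and 36 bases before the start, and the TATA word followed the latter directly at 30 bases, with no shared base. In S100a9 the C/EBP word began 236 bases before the start. Mmp8 held a PU.1 word at 219 bases and a C/EBP word at 19 bases. Searched over 250 bases before to 50 bases after the start, the C/EBP word was found in 5 of 10 promoters (Ltf, Mmp8, Ngp, Retnlg and S100a9) and in 10.8% of 32851 promoters of all genes. The PU.1 word was found in 5 of 10 (Elane, Ltf, Mmp8, Mpo and S100a8) and in 28.3% of all, and the TATA word in 3 of 10 (Chil3, S100a8 and S100a9) and in 8.32% of all. Unlike in S100a8, the TATA word began only 3 bases before the start in Chil3 and at the start itself in S100a9. Camp held none of these letters in its window. A word is a match of letters and no evidence of binding.

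**Figure D1:**
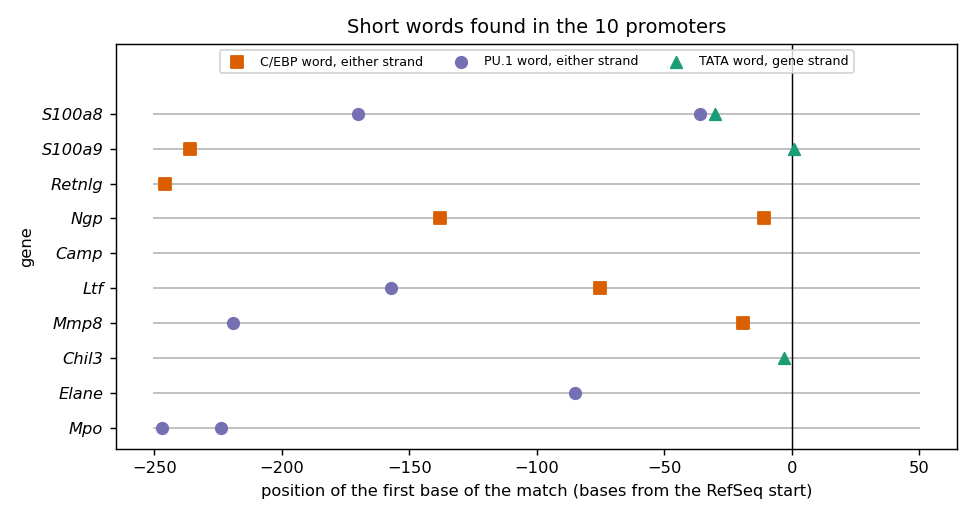
Positions of the C/EBP, PU.1 and TATA words in the promoters of the 10 genes, in bases from the RefSeq start (0, black line). Each mark is the first base of a match on the gene strand, and Camp has none.

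The alarmins were the most abundant of the 10 genes in the LBR-null mice. In the WT mouse Ltf, at 17.2 normalized counts, lay between S100a8 and S100a9. S100a8 had 574 and 362 normalized counts in the libraries of mouse 4001, 160 in mouse 4002, 895 and 924 in mouse 4007, and 44.1 and 56.1 in the WT mouse. S100a9 had 364 and 181 in mouse 4001, 136 in mouse 4002, 951 and 830 in mouse 4007, and 11.02 and 5.43 in the WT mouse. For both subunits every LBR-null library lay above both WT libraries, which was also true of 25.5% of the 17283 genes tested. The LBR-null mean of S100a8 was 513 ± 377 (SD, n = 3 mice) against 50.1 in the WT mouse, 10.2-fold, with a log2 difference of 3.003 ± 1.26. S100a9 averaged 433 ± 402 (SD, n = 3 mice) against 8.23, 52.6-fold, with a log2 difference of 5.12 ± 1.37. All log2 differences are on log2(normalized count + 1), which understates the change of low genes, and their SD is over the 3 LBR-null mice. S100a8 was the alarmin the WT kidney also held in some quantity, with 118 reads over both libraries against 20 reads of S100a9.

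The balance of the calprotectin subunits differed as well. There were 0.634 and 0.50 S100a9 reads per S100a8 read in the libraries of mouse 4001, 0.849 in mouse 4002, 1.06 and 0.898 in mouse 4007, and 0.250 and 0.0968 in the WT mouse. All 5 LBR-null libraries lay above both WT libraries. Per mouse the ratio was 0.582, 0.849 and 0.979, against 0.164 in the WT mouse. The WT ratio has a 95% interval of 0.0999 to 0.274 (exact Clopper-Pearson, counting error only) and rests on few S100a9 reads. Averaged over mice, the log2 ratio was 2.12 higher in LBR-null kidneys, 2.34 higher without mouse 4001, and 1.56 or 2.80 higher when 1 WT library was left out.

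**Figure D2:**
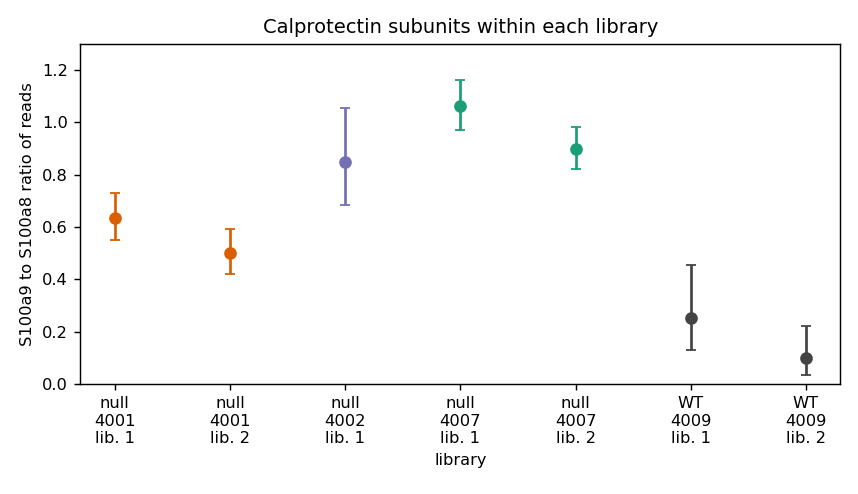
Reads of S100a9 per read of S100a8 in each library, with 95% exact intervals for counting error only. The 5 LBR-null libraries sit between 0.50 and 1.06 and the WT libraries at 0.250 and 0.0968.

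Retnlg, a resistin-like secreted protein made by neutrophils, showed the largest difference. It had 165 and 125 normalized counts in mouse 4001, 44.7 in mouse 4002, 358 and 304 in mouse 4007, and 0.787 and 0 in the WT mouse. This was 1055 reads in the 5 LBR-null libraries and 1 read in the WT libraries. The ratio of pooled reads, at equal size factors, was 470 with a 95% counting interval of 84.2 to 18581, so its size is known only roughly. The mean was 174 ± 145 (SD, n = 3 mice) against 0.394. Its log2 difference of 6.55 ± 1.44 ranked 1 of 17283 genes.

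The specific granule genes did not all follow suit. Ngp, a cystatin-like protein of these granules, had 96.5 and 89.6 normalized counts in mouse 4001, 17.2 in mouse 4002, 155 and 193 in mouse 4007, and 2.36 and 1.81 in the WT mouse. Mmp8, the neutrophil collagenase, had 56.3 and 66.6 in mouse 4001, 21.5 in mouse 4002, 154 and 140 in mouse 4007, and 2.36 and 1.81 in the WT mouse. Neither gene overlapped between groups. Ngp was 45.4-fold higher in the mean (94.7 ± 78.4 against 2.09, SD, n = 3 mice, log2 difference 4.44 ± 1.69) and Mmp8 was 36.7-fold higher (76.6 ± 64.1 against 2.09, SD, n = 3 mice, log2 difference 4.26 ± 1.36). Each WT value was 5 reads over both libraries. Camp, the precursor of the antimicrobial peptide cathelicidin, was lower in level, with 9.19 and 15.97 in mouse 4001, 6.88 in mouse 4002, 29.8 and 24.6 in mouse 4007, and 0 and 0.905 in the WT mouse. Its groups did not overlap either, and its read ratio was 41.4 with a counting interval of 7.26 to 1654, since the WT kidney gave 1 read.

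Ltf went apart from the other specific granule genes. Lactoferrin, which binds iron, is also made by glandular epithelia, so its RNA is not restricted to neutrophils. It had 52.8 and 23.1 normalized counts in mouse 4001, 10.3 in mouse 4002, 58.7 and 65.6 in mouse 4007, and 23.6 and 10.9 in the WT mouse. The groups overlapped. Mouse 4002 lay below the WT mouse by a log2 difference of -0.69, the only such case among the 10 genes, while mice 4001 and 4007 lay above it by 1.09 and 1.79. The mean log2 difference of 0.73 was smaller than its SD over mice, 1.28. It was 0.30 or 1.35 when 1 WT library was left out, 0.20 without mouse 4007 and 1.44 without mouse 4002. Among Ltf, Camp, Ngp and Mmp8, Ltf stood highest in the WT mouse, at 17.2 normalized counts and 42 reads.

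Chil3 encodes the chitinase-like protein Ym1, made by neutrophils and by some macrophages. It had 74.6 and 71.9 normalized counts in mouse 4001, 32.7 in mouse 4002, 201 and 179 in mouse 4007, and 0 and 1.81 in the WT mouse, with no overlap. The LBR-null mean was 98.6 ± 81.6 (SD, n = 3 mice) against 0.905, the log2 difference 5.36 ± 1.253 and the ratio of reads 133 with a counting interval of 36.6 to 1099. Its gene model overlaps that of the near-identical Chil4, and reads that match both could have been lost or split in counting. Chil4 was listed at 0.444, 2.58 and 0.466 normalized counts in the LBR-null mice and 3.38 in the WT mouse. Chil4 thus held few reads in either group.

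The azurophil granule genes had few reads. Mpo had 4.59 and 7.10 normalized counts in mouse 4001, 4.30 in mouse 4002, 12.1 and 14.6 in mouse 4007, and 0.787 and 0 in the WT mouse. Elane had 0 and 7.10 in mouse 4001, 2.58 in mouse 4002, 10.2 and 11.8 in mouse 4007, and 0.787 and 1.81 in the WT mouse. Mpo did not overlap between groups, with 46 LBR-null reads and 1 WT read (ratio 20.5, counting interval 3.50 to 827). Elane overlapped because 1 library of mouse 4001 was listed at 0, and its reads, 35 and 3, gave a ratio of 5.20 with an interval of 1.64 to 26.4. In log2 terms Mpo differed by 2.53 ± 0.75 and Elane by 1.34 ± 0.93. The Elane difference was 0.61 without library 2 of mouse 4001 and 1.62 without library 1 of that mouse. Per kb of exon the LBR-null means were 1308 for S100a8, 829 for S100a9, 286 for Retnlg, 77.8 for Ngp, 61.4 for Chil3, 31.2 for Mmp8, 25.9 for Camp, 13.4 for Ltf, 6.22 for Elane and 2.49 for Mpo, in normalized counts per kb. The azurophil genes, made earliest in neutrophil maturation, were thus the lowest in LBR-null kidneys. The SD over mice was 61.8% to 92.9% of the mean, a spread that the genes shared. Within single LBR-null mice each gene lay above the next in all 3, except Ngp and Chil3 and also Mmp8 and Camp, whose order was reversed in mouse 4002. In the WT mouse the order was another, with Retnlg at 0.378 times Ngp per kb and Camp at 0.120 times Ltf. That order is known only roughly, since the WT mouse gave 1 read each of Retnlg and Camp and 5 reads of Ngp.

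**Figure D3:**
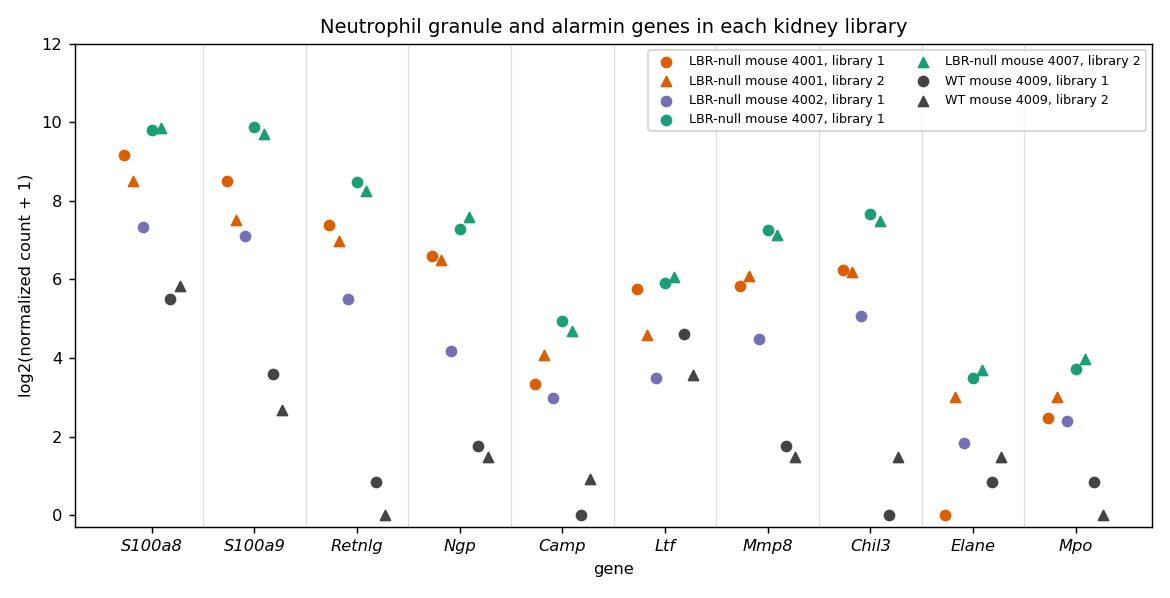
Level of the 10 genes in each of the 7 libraries, on log2(normalized count + 1), circles for library 1 and triangles for library 2 of a mouse. LBR-null libraries lie above both WT libraries for all genes but Ltf and Elane, and mouse 4007 is highest throughout.

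Across the 10 genes, 8 had every LBR-null library above both WT libraries, the choice of genes having fixed this direction, and the background share of such genes was 25.5%. Without mouse 4001 it was 9, Elane being added. Of the 10 genes, 9 had a mean of at least 5 over the 4 mice and entered the fit over all genes. For 6 of these 9 the WT mouse was below 5, so they passed through the LBR-null mice alone. The median log2 difference over all 10 genes was 3.79, against 0.01 over all genes tested. By mouse it came to 3.78 (4001), 2.50 (4002) and 4.93 (4007). Of the 10 genes, 9 had a log2 difference of at least 1, as had 12.8% of all genes, and 0 were at -1 or lower, as were 7.54%. Without mouse 4001 the median was 3.78. The single log2 differences were then 2.91 for S100a8, 5.24 for S100a9, 6.47 for Retnlg, 4.19 for Ngp, 3.36 for Camp, 0.55 for Ltf, 4.22 for Mmp8, 5.396 for Chil3, 1.51 for Elane and 2.65 for Mpo. None of the 10 thus moved across the WT level. In whole-kidney RNA a change in the number of neutrophils, a change in RNA per cell and expression by other cells of the kidney cannot be told apart.

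The LBR-null mice differed widely and in 1 order. Mouse 4007 was highest, mouse 4001 between and mouse 4002 lowest for 10 of 10 genes. The highest mouse exceeded the lowest 3.10-fold for Mpo and 10.1-fold for Ngp, with the other genes between. The sum of the 10 genes came to 1173 normalized counts for mouse 4001, 436 for mouse 4002 and 2756 for mouse 4007, against 83.2 in the WT mouse. S100a8 and S100a9 made up 63.1%, 67.9% and 65.3% of this sum in the LBR-null mice and 70.1% in the WT mouse. Mouse 4002, the nearest to the WT mouse in Xist and Ddx3y, was still 3.19-fold above it for S100a8, 16.5-fold for S100a9, 8.24-fold for Ngp and 10.3-fold for Mmp8. The animal and the genotype cannot be told apart in a comparison of 1 mouse with 1.

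The libraries of a mouse were not equally close in the 3 mice that had a pair of them. In mouse 4007 the first library had 0.800 to 1.21 times the value of the second over the 10 genes. In mouse 4001 it had 2.01 times the S100a9 of the second, 1.59 times the S100a8 and 2.29 times the Ltf, yet 0.575 times the Camp and 0.845 times the Mmp8. Over all genes the squared difference between the libraries of mouse 4001 was 3.26 times the counting variance (median), against 1.02 in mouse 4007 and 0.820 in the WT mouse. Under counting error alone the median of this ratio would lie well under 1. The libraries thus differed by more than counting error in all 3 mice, and by the most in mouse 4001. Each mouse was counted as 1 sample in any case.

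**Figure D4:**
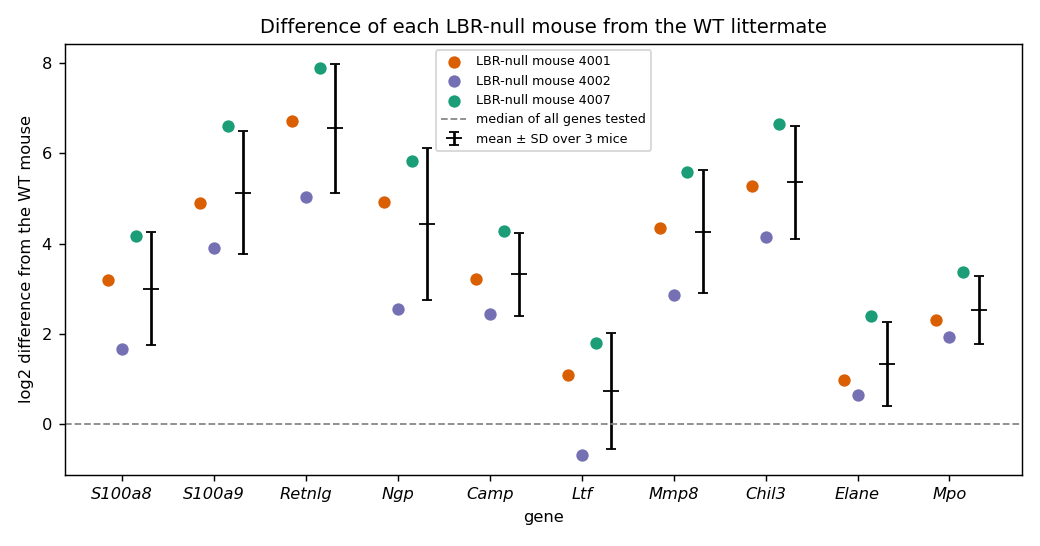
Log2 difference of each LBR-null mouse from the WT mouse for the 10 genes (coloured points), with the mean ± SD over 3 mice (black) and the median of all genes tested (dashed line, 0.01). Mouse 4007 is highest and mouse 4002 lowest for every gene, and mouse 4002 is below the WT mouse for Ltf.

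Genes next to the 10 on the chromosome did not share their pattern as a rule. Of 36 distinct coding neighbours, 31 were in the tables and 24 had a mean of at least 5. Of these 24, 4 had every LBR-null library above both WT libraries (Lrrfip2, Supt4a, Chia1 and Lpo), against 25.5% of all genes, and the 24 had a median log2 difference of -0.27. S100a7a, the gene next to S100a8, was low in both groups, with 5.11 normalized counts on average in LBR-null kidneys and 8.74 in the WT kidney (log2 difference -0.75). S100a6, the next one in the S100 cluster, had 1449 and 1551 (log2 difference -0.15). Pglyrp4, a peptidoglycan recognition protein gene beside S100a9, differed by 2.21, with 9.004, 10.3 and 13.8 in mice 4001, 4002 and 4007 and 1.57 in the WT mouse, and 1 library of mouse 4001 lay within the WT range. Cfd, the adipocyte serine protease complement factor D next to Elane, differed by -4.14, with 169, 26.7 and 39.6 in mice 4001, 4002 and 4007 against 1015 in the WT mouse. Chia1 (2.24) beside Chil3 and Lpo (1.57) beside Mpo are relatives of these genes as well as neighbours. Chia1 had 40.04, 57.6 and 55.7 normalized counts in mice 4001, 4002 and 4007 and 9.86 in the WT mouse, and mouse 4007 was not the highest.

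Other genes of neutrophils were not part of the 10 and were tested in the fit over all genes, although their lists were drawn up with results of these data known and are no independent evidence. The lists of granule, surface receptor, cytosol and oxidase genes held 67 genes besides the 10, of which 65 were in the tables and 57 were tested. limma with Benjamini-Hochberg adjustment called 0 of 57 (adjusted p under 0.05 and at least 2-fold), and 0% of all genes in either direction. edgeR called 0 of 57 as well, against 0.00579% of all genes higher and 0.156% lower. DESeq2 called 6 of 57 higher (BC100530, Cxcr2, Gm5483, Lrg1, Stfa2 and Stfa2l1, against 3.24% of all genes) and 3 lower (Cybb, Fcgr4 and Olfm4, against 3.48%). In 5 of the 6 the WT mouse was below 5, so that they passed the filter on low values through the LBR-null mice alone and had to differ. Lrg1 was the other one, and the 6 calls are no support as a count. At an unadjusted limma p under 0.05, 16 of 57 (28.1%) were higher, against 10.7% of all genes, and 7 (12.3%) were lower, against 8.05%. For 12 of the 16 the WT mouse was likewise below 5, and their count is no support either. With a mean of at least 20, 35 genes remained, of which 2 (5.71%) were higher, against 7.23% of all genes, and 7 (20.0%) lower, against 8.76%. Their median log2 difference was 0.08. Every LBR-null library was above both WT libraries for 27 (47.4%, against 25.5%) and below both for 12 (21.1%, against 25.7%). Of the 27, 15 had the WT mouse below 5. With a mean of at least 20, 11 of 35 (31.4%) were above without overlap, against 22.9% of all genes at that mean, and 12 of 35 (34.3%) below, against 28.4%. The median log2 difference of the 57, of which 18 had the WT mouse below 5, was 0.76, far under the 3.79 of the 10 chosen genes. It was 0.89, 0.22 and 0.92 in mice 4001, 4002 and 4007, so that mouse 4002 was again the lowest. These 57 values moved together in the same 4 mice and are not independent of each other.

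Without mouse 4001, limma called 3 of these genes higher (Ceacam10, Cxcr2 and Lrg1) and 3 lower (Cybb, Fcgr4 and Olfm4) of 55 tested, against 2.94% and 3.83% of all genes. Ceacam10 and Cxcr2 were below 5 in the WT mouse. Without mouse 4002 it called 10 higher (BC100530, Clec4d, Cxcr2, Gm5483, Il1r2, Lrg1, Stfa1, Stfa2, Stfa2l1 and Trem3) and Olfm4 lower of 56 tested, against 1.96% and 1.66% of all genes. For 9 of these 10, all but Lrg1, the WT mouse was below 5, so they passed the filter through the LBR-null mice and their count is no support. The genes named from these calls, and Cd177, Csf3r, Cebpe, Tlr4 and Ager, were picked after their values were seen. Cxcr2, the receptor through which neutrophils follow CXC chemokines, had 17.2 and 14.2 normalized counts in mouse 4001, 14.6 in mouse 4002, 39.1 and 38.3 in mouse 4007, and 0.787 and 2.71 in the WT mouse, a log2 difference of 2.99 ± 0.70 (SE) with an adjusted p of 0.11 by limma, 0.13 by edgeR and 0.024 by DESeq2. Stfa2, a stefin (a cysteine protease inhibitor of myeloid cells), had 14.9 and 20.4 in mouse 4001, 6.02 in mouse 4002, 47.5 and 49.2 in mouse 4007, and 0 in both WT libraries, with an adjusted p of 0.12 by limma, 0.14 by edgeR and 0.011 by DESeq2. Like the 10 genes, both were highest in mouse 4007.

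Some genes of mature neutrophils lay the other way. Olfm4, a specific granule protein of a subset of neutrophils that epithelia also make, had 3.44 and 11.5 normalized counts in mouse 4001, 12.0 in mouse 4002, 12.1 and 7.29 in mouse 4007, and 92.1 and 100.4 in the WT mouse (log2 difference -3.20 ± 0.52, SE, adjusted p = 0.091 by limma, 0.062 by edgeR and 4.5e-05 by DESeq2). Fcgr4, an Fc receptor of neutrophils and monocytes, lay between 19.5 and 24.9 in LBR-null libraries and at 92.1 and 87.7 in the WT libraries (log2 difference -1.94 ± 0.43, SE, adjusted p = 0.11 by limma, 0.10 by edgeR and 0.0097 by DESeq2). Mmp9, the gelatinase of the granules made last, had 26.4 and 35.5 in mouse 4001, 5.16 in mouse 4002, 64.3 and 54.7 in mouse 4007, and 97.6 and 94.99 in the WT mouse (log2 difference -2.09 ± 1.18, SE, limma adjusted p = 0.40). For all of these the groups did not overlap. Genes of these granules thus lay on both sides of the WT level.

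The cytosol and stefin cluster genes held many genes that are low in the WT kidney. Of 16 tested, 10 were higher at an unadjusted p under 0.05 (10.7% of all genes) and 0 lower (8.05%), and the median log2 difference was 1.93. For 6 of these 10, and for 7 of the 16, the WT mouse was below 5, and they passed the filter through the LBR-null mice alone, so neither the count nor the median is support. The 8 genes with a mean of at least 20 had a median of 0.93. The most abundant of them were G0s2, a lipase inhibitor, at -0.12, Mxd1, a MYC antagonist, at 0.53, Hdc, which makes histamine, at 0.35, and Lrg1, a secreted glycoprotein, at 2.0. Of 18 surface receptors, 5 (27.8%) were higher and 2 (11.1%) lower at that level, with a median of 1.23. For all 5, and for 9 of the 18, the WT mouse was below 5, and they too passed the filter through the LBR-null mice alone. The 9 receptors with a mean of at least 20 had a median of 0.17. The most abundant, Fcgr3 (-0.02), Itgb2 (-0.91) and Selplg (-1.05), are Fc receptor, integrin and selectin ligand genes that other leukocytes share. Csf3r, the receptor of granulocyte colony-stimulating factor, was at 1.20 ± 0.56 (SE, limma adjusted p = 0.31).

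Genes of the granule lists lay on both sides of the WT level. Besides the 10 genes, 7 specific granule genes had a median log2 difference of 0.22 (-0.15 for the 6 with a mean of at least 20), from -3.20 for Olfm4 to 1.95 for Cd177. The most abundant were Ltbp1 (-0.87), Anxa1 (-0.52), Lyz2 (0.22) and Lcn2 (1.09), of which Lcn2 is made by injured tubules too. The 4 azurophil genes had a median of 0.49. Among them Ctsc, the protease that activates elastase, was at 0.92, Serpinb1a, an inhibitor of elastase, at 0.06, Prss57, a serine protease, at 1.54, and Prtn3, proteinase 3 and the gene beside Elane, at -0.39. Prss57 had 2.14 normalized counts in the WT mouse, and its groups overlapped. The 6 gelatinase granule genes had a median of 0.39 (-0.32 for the 4 with a mean of at least 20), with Arg1 (1.10), Slc11a1 (-0.53) and Mmp9 the most abundant. The 6 genes of the NADPH oxidase, which makes superoxide in all phagocytes, had a median of -0.55, with Cyba at -0.72 and Cybb at -1.43, and 3 (50%) were lower at an unadjusted p under 0.05, against 8.05% of all genes.

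Among the factors that drive granulocyte genes, Klf6 (0.78), Cebpd (0.61) and Cebpb (1.06) were the most abundant, and Cebpa was at -0.72. Of 7 factors tested, those first 3 (42.9%) had every LBR-null library above both WT libraries, against 25.5% of all genes, and 2 (28.6%) had every one below, against 25.7%. The latter were Cebpa and Spi1, which encodes PU.1 and was at -0.52 (picked after its values were seen). Cebpe, which is needed for specific granules, had fewer than 5 normalized counts in every library. Of 16 attractants and growth factors 5 were tested, and 0 had an unadjusted p under 0.05 by limma or a call by edgeR or DESeq2. Cxcl12 was at -0.49, the neutrophil attractant Cxcl1 at -0.48 and Il1b at 0.23. Of 8 receptors and adaptors for calprotectin and other alarmins, 1 (12.5%) was higher at an unadjusted p under 0.05, near the 10.7% of all genes, and 0 lower. The most abundant, Bsg and Cd36, differed by -0.37 and 0.24. Tlr4, which binds calprotectin, had a log2 difference of -0.35 and Ager, the receptor for advanced glycation end products, 1.69 (adjusted p = 0.14 by limma, 0.16 by edgeR and 0.015 by DESeq2).

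Markers of other cells also differed between the groups, and their part in the values of the 10 genes was not tested. Of 11 macrophage genes, 8 had every LBR-null library below both WT libraries (25.7% of all genes) and 1 above (25.5%), with a median log2 difference of -0.71 and a summed level of 3924 to 4481 normalized counts in LBR-null mice against 7690 (3633 to 4022 against 5111 without Cd74). Of 7 monocyte genes, 6 were below and 1 (F13a1) above, with a median of -1.44 and a sum of 1082 to 1839 against 4868 (526 to 781 against 1282 without Fn1). The median was -0.63 for B cells, -0.76 for T and NK cells and -0.62 for erythroid genes. Of the eosinophil genes 3 were tested, with a median of 2.39 that rests on Epx and Siglecf, which passed the filter through the LBR-null mice alone. The third, Il5ra, was at 0.12 and overlapped between groups. The granule peroxidase Epx (3.06) and Siglecf (2.39) did not overlap between groups, Epx at 22.4 to 75.8 normalized counts against 1.57 and 6.33, and Siglecf at 9.19 to 40.8 against 6.30 and 0.905. The gene Ly6g, a defining marker of mouse neutrophils, is not in the tables under that symbol. Tubular injury genes had a median of -0.81. The kidney segment genes also differed, with a median of -0.57, and 6 of 12 (50%) had every LBR-null library below both WT libraries, against 25.7% of all genes. Their sum was 190028 to 395924 normalized counts in LBR-null mice against 571902, and 130866 to 219816 against 214756 without Kap, a proximal tubule gene. DESeq2 called Lrp2 (-1.59) and Slc34a1 (-1.67), both of the proximal tubule, lower, and limma called 0 of 12.

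**Figure D5:**
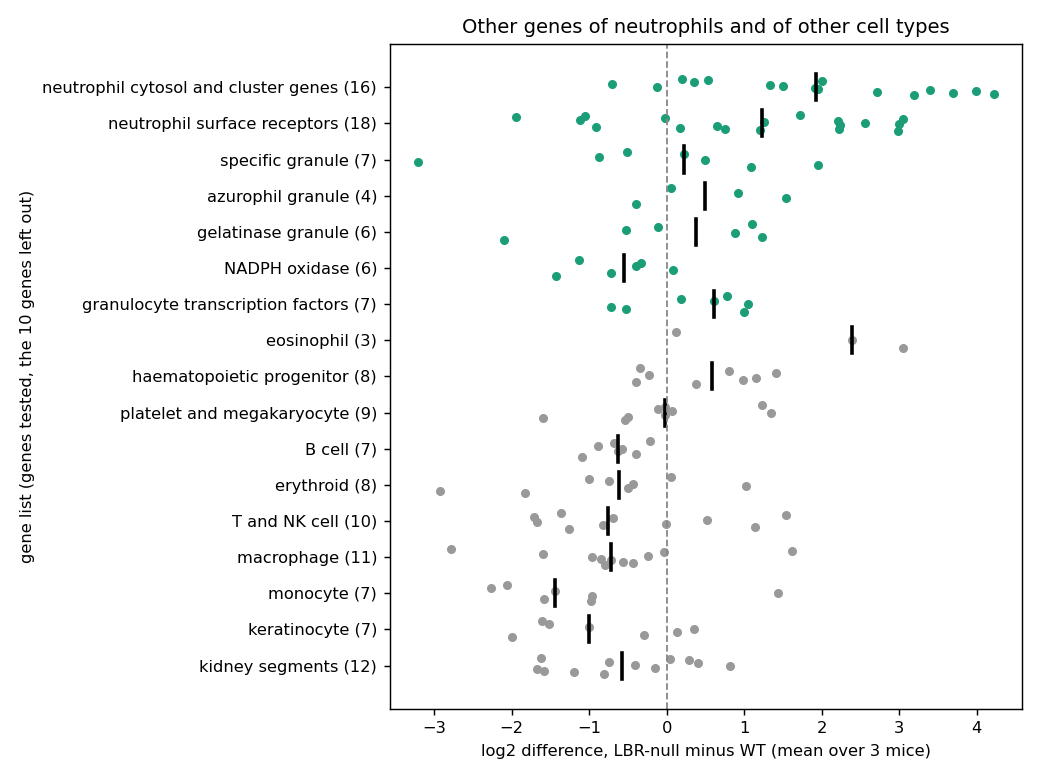
Log2 difference (LBR-null minus WT, mean over 3 mice) of each tested gene of neutrophil lists without the 10 genes (green) and of other cell types (grey), with the median of each list (black bar) and of all genes (dashed line). The cytosol and cluster genes centre at 1.93, with 7 of 16 tested through the LBR-null mice alone, and the monocyte genes at -1.44.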

How the data were processed

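Kidney polyA RNA from 3 LBR-null mice (5 libraries) and 1 WT littermate (2 libraries) was sequenced as 150 bp paired ends. The authors used STAR 2.6.0 with the mm9 genome and deposited a signal per gene symbol in each library, namely the read counts divided by the DESeq2 1.25.1 size factor (versions from the submitters' processing notes). The counting program and annotation are not given in the sources used here. All deposited values were whole multiples of 1 read within 0.01 read (100%), so reads were recovered.

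Libraries were averaged within a mouse, the replicate. Whether the libraries of a mouse came from separate aliquots of tissue is not stated. limma 3.58.1 (R 4.3.3, eBayes with trend) was run on log2(normalized count + 1) of the 17283 genes with a mean of at least 5, and calls needed an adjusted p under 0.05 and a 2-fold difference. It takes the WT mouse to vary like the LBR-null mice. edgeR 4.0.16 and DESeq2 1.42.0 were run on recovered reads summed per mouse. DESeq2 gave an adjusted p for 16612 genes. The scripts were tested on simulated data. Gene positions came from GENCODE models on mm9, where Chil3 is named Chi3l3. The 10 genes and all lists were chosen with earlier results of these data known. From each list the text names genes called, or else the most abundant ones, apart from those marked as picked later and a few that are not reported here. The intervals cover counting error only. A value of 0 is no proof of absence, since 3 globin genes (Hbb-b1, Hbb-b2, Hba-a2) had no read anywhere.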

Additional observations from a re-analysis of the deposited data

How the results depend on the processing

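The log2 differences of the 10 genes were taken 168 times under other pseudocounts, filters, scalings, fits of single libraries and left-out mice or libraries. A change of filter cannot move these values, and no edgeR or DESeq2 value was among them. None of the 168 changed sign, and 164 moved by less than 1 SD over mice. The 4 that moved further were all at a pseudocount of 5, where Retnlg was at 4.66, Camp at 1.79, Chil3 at 3.82 and Mpo at 1.19. The median of the 10 stayed between 3.05 and 4.36. Equal totals and TMM scaling shifted the median of all genes by -0.01 and -0.03. The S100a9 to S100a8 log2 ratio was 1.72 at a pseudocount of 5, and 1.56 to 2.80 with 1 mouse or library left out. Over all genes limma made 0 calls, edgeR 28, DESeq2 1117, and limma 0 to 1163 with 1 mouse or library left out (1163 without mouse 4001, 625 without mouse 4002). The other neutrophil genes called higher were 6 by DESeq2 and 0 to 10 with 1 left out, and all but Lrg1 had the WT mouse below 5. At an unadjusted p under 0.05, their number was 16 in the main setting, 23 without mouse 4002, 21 by DESeq2, 10 at a pseudocount of 5, 9 with no filter and 8 without mouse 4007. With a mean of at least 20 it was 2 of 35 (5.71%, against 7.23% of all genes), with 7 of 35 (20.0%, against 8.76%) lower, and 11 of 35 had no overlap above WT and 12 of 35 none below. Of the 16, 12 have a mean under 20. Their median of 0.76 was 0.60 without mouse 4001 and 1.08 without mouse 4002. The causes were not tested.

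Libraries are numbered 1 and 2 in both groups. Deviations from group means correlated between -0.05 and 0.05 across the numbers. The 2 WT libraries come from 1 mouse and deviate from their mean as mirror images. The LBR-null deviations also hold the differences between mice. This check therefore cannot decide whether the numbers pair the samples. On single libraries with the mouse as a random effect, limma with the replicate block called 683 genes, of which 2 were other neutrophil genes higher (Lrg1 and Stfa2), and 847 and 2 without the block, a fit added after the data were seen. The block gave a log2 ratio of 2.07 for the calprotectin subunits. It gave no median of the 10, since Elane is below the filter. The precision is limited by the single WT mouse and by 1 to 5 WT reads for 7 of the 10 genes.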

Other observations

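Relatives of the 10 genes lay on both sides of the WT level. Besides S100a8 and S100a9, 12 genes of the S100 list were tested, with a median log2 difference of -0.11, and 2 (16.7%) had every LBR-null library above both WT libraries, against 25.5% of all genes. The most abundant, the vitamin D dependent calcium binder S100g of the distal tubule, was at 0.73, S100a1 at -0.41 and S100a11 at -0.22. S100a14, an epithelial S100 protein picked after its values were seen, had 214, 277 and 299 normalized counts in mice 4001, 4002 and 4007 and 72.9 in the WT mouse. Its log2 difference was 1.82 ± 0.33 (SE), with an adjusted p of 0.094 by limma, 0.11 by edgeR and 0.00041 by DESeq2. In the resistin family Retnla (-2.59) and Retn (-1.83), which fat tissue expresses, lay on the other side from Retnlg. Retnla had 58.6 and 50.6 normalized counts in mouse 4001, 2.58 in mouse 4002, 4.66 and 4.56 in mouse 4007, and 63.0 and 59.7 in the WT mouse. Among 4 chitinase-like genes besides Chil3 (median 1.22) Chid1 (-0.79) and Ctbs (0.29) were the most abundant. Chil1, picked after its values were seen, lay between 35.5 and 62.0 in LBR-null libraries and at 11.8 and 8.14 in WT libraries (log2 difference 2.15 ± 0.44, SE, adjusted p = 0.11 by limma, 0.12 by edgeR and 0.0097 by DESeq2). Chia1 (2.24) did not overlap between groups either. Among 3 peroxidases besides Mpo (median 1.57) Pxdn was at -0.62, Epx at 3.06 and Lpo at 1.57. Transferrin (Trf), the relative of lactoferrin, was at 1.41.

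Likeness was measured as the root-mean-square distance, over the 3 LBR-null mice, between the log2 differences of a gene and the median profile of the 10 genes. Among the 10 nearest of 17274 genes were Stfa2l1 (0.248), BC100530 (0.269), Gm5483 (0.411), Slc6a19os (0.4997), Stfa2 (0.507), 4833411C07Rik (0.515), Nox3 (0.534), Stfa1 (0.571) and Sohlh1 (0.573). Of the 10 nearest, 5 are stefin cluster genes of the neutrophil lists, which make up 0.330% of the genes compared. All 5, and 8 of the 10, had the WT mouse below 5 and were compared through the LBR-null mice alone, so likeness to a profile of large differences was partly fixed. Slc6a19os had 179, 70.5 and 230 normalized counts in mice 4001, 4002 and 4007 and 12.7 in the WT mouse. All 3 LBR-null mice share the 1 WT mouse, so a low WT value raises all 3 differences of a gene at once.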
